A study of Mus musculus with 12 samples.

Results

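Tumour-infiltrating CD8+ T cells of mice with kinase-inactive TYK2 (KE) were compared with those of wild-type mice (WT). The comparison, termed KEvsWT, took the 2 KE and the 2 WT CD8 libraries out of 12 libraries in the count table and all of its genes, of which 13279 of 54232 passed the filter on low counts and were tested. The other 8 libraries were CD8 T cells of Tyk2 knockout mice (KO) and NK cells of the 3 genotypes, and they served to estimate the spread and for comparison. KE mice carried the K923E allele of Tyk2, which leaves the protein in place without kinase activity, KO mice carried a null allele, and WT mice were C57BL/6N, the background of both mutants. All mice had received subcutaneous injections of MC38 cells, a mouse colon adenocarcinoma line, into each flank without further treatment, were sex- and age-matched (6 to 12 weeks) and had tumours isolated after 8 to 10 days. The alleles are germline, so the T cells, the NK cells and the tissue around the tumour all carried them, while the MC38 cells did not. CD8+ T cells were defined by CD45, CD3ε and CD8a, and each library was made from 300 sorted cells with Smart-seq2, a PCR-based method for polyadenylated RNA. No label says whether the 2 libraries of a group came from separate mice, so p-values measure the spread between these samples, which may be technical.

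TYK2 is a Janus kinase (JAK) bound to receptors for type I interferons (IFN), IL-12, IL-23 and the IL-10 family. When a cytokine binds, TYK2 and its partner JAK phosphorylate each other and the receptor, and STAT transcription factors are recruited, activated and sent to the nucleus. The complex that forms after type I IFN consists of phosphorylated STAT proteins and IRF9 and binds the interferon-stimulated response element in promoters of interferon-stimulated genes (ISG). In CD8+ T cells, type I IFN and IL-12 are known as signals that accompany antigen and shape effector function.

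The 4 libraries were similar in depth, with 12058703 to 14732882 counts, 13440 to 13979 genes with at least 1 count and 4.50% to 7.68% of counts from mitochondrial genes. Values are given as CPM (counts per 1e6 reads of the library, whose size was first multiplied by its TMM factor, as in the tests), and not per transcript length, so levels were not compared between genes. A floor of 3 counts corresponded to 0.218 to 0.248 CPM and, like every interval here, covers counting error only. Replicates were no more alike than genotypes: Pearson's r of log2 CPM, taken over genes that cannot count as replicates, was 0.763 within KE, 0.766 within WT and 0.742 to 0.768 between KE and WT libraries. The Y-linked genes Ddx3y, Eif2s3y, Kdm5d and Uty were read in all 4 libraries, at 8.27 CPM or more, while Xist, which is expressed from an inactive X chromosome, had 0 and 0.0726 CPM in WT and 0 and 15.7 CPM in KE, so that KE 2 stood apart. The sorted identity was visible in Cd8b1, at 2070 and 1980 CPM in WT and 2150 and 2170 CPM in KE, and in Cd8a, at 2840 and 3850 CPM in WT and 3150 and 4090 CPM in KE. The NK markers Klrb1c (1.41 to 5.05 CPM) and Ncr1 (1.03 to 1.63 CPM) were low in the 4 libraries. Tyk2 itself was read at 48.3 and 86.1 CPM in WT and at 58.9 and 46.7 CPM in KE, and because gene counts do not show a point mutation the genotype labels could not be checked. Of 68 tested genes within 5 Mb of Tyk2 on chromosome 9, 8 were lower and 11 higher in both KE libraries than in both WT libraries, beside 16.2% of all genes tested in either direction, and 0 were differentially expressed by edgeR (3 had an unadjusted p under 0.05, as did 738 of all 13279).

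A differentially expressed gene (DEG) had to reach a false discovery rate (FDR) under 0.05 in edgeR's quasi-likelihood test together with a change of 1 or more on the log2 scale. There were 11 DEG, 6 lower in KE (0.0452% of the genes tested) and 5 higher (0.0377%). The lower DEG were 4 genes of interferon-stimulated families (Oasl2, Slfn8, Trim30a and Plac8) and the lymphocyte receptor genes Klrb1f and Trdc, and the higher DEG were Trim5, the chemokine gene Xcl1, the non-coding transcript Gm20743 that overlaps it, Arrdc4 and Car2. Both KE libraries lay on one side of both WT libraries for each of the 11. In the edgeR fit without WT replicate 1 there were 0 DEG, without WT 2 there were 4, without KE 2 there were 5 and without KE 1 there were 8. Oasl2, Slfn8, Trim30a, Plac8, Trim5 and Car2 were called in 0 of these 4 fits, so that each interferon-stimulated DEG lost its call whichever library was left out. Xcl1 and Gm20743 were called in 2 of the 4, and Trdc, Klrb1f and Arrdc4 in 1.

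Trim30a and Plac8 had the smallest standard errors among the interferon-stimulated DEG. Trim30a (ENSMUSG00000030921, chromosome 7, 104409025 to 104465193, minus strand) encodes an E3 ligase of the tripartite motif family known to dampen innate signalling. It was read at 545 and 491 CPM in WT and at 98.5 and 72.1 CPM in KE, a 6.08-fold lower mean (log2 fold change -2.60, SE 0.35, edgeR FDR 0.0366). Plac8 (ENSMUSG00000029322, chromosome 5, 100553725 to 100572245, minus strand), a small cysteine-rich protein of leukocytes, was read at 1150 and 1170 CPM in WT and at 147 and 263 CPM in KE. Its WT libraries differed by less than its KE libraries did, and the means were 1160 ± 11.2 CPM (SD, n = 2) and 205 ± 82.0 CPM (log2 fold change -2.50, SE 0.35, edgeR FDR 0.0366). Slfn8 (ENSMUSG00000035208, chromosome 11, 83002158 to 83020810, minus strand), of the Schlafen family, was read at 109 and 159 CPM in WT and at 4.63 and 11.3 CPM in KE (log2 fold change -4.07, SE 0.55, edgeR FDR 0.0366). Oasl2 (ENSMUSG00000029561, chromosome 5, 114896936 to 114912234, plus strand) belongs to the oligoadenylate synthetase-like family, which acts in antiviral defence. It was read at 12.4 and 56.1 CPM in WT, while KE libraries held 0 and 1 counts. The ratio of the group counts was 887-fold lower in KE, with an exact 95% counting interval of 159 to 35100, and the edgeR FDR was 0.0366.

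Trim5 (ENSMUSG00000060441, chromosome 7, 104263386 to 104288094, minus strand), which encodes a capsid-binding restriction factor, lies 145.6 kb from Trim30a by their starts and went the other way. WT libraries held 1 and 2 counts, KE libraries were read at 21.2 and 39.1 CPM, and the ratio of group counts was 279-fold higher (95% counting interval 95.1 to 1360, edgeR FDR 0.0366). The cluster between and beside these genes did not move as one. Trim30d was read at 124 and 103 CPM in WT and 20.9 and 0.293 CPM in KE, Trim12a at 154 and 149 CPM against 107 and 105 CPM, and Trim34a at 32.2 and 54.6 CPM against 46.5 and 18.7 CPM, none of them past the edgeR FDR threshold (0.792, 0.883 and 1). Genes of this cluster are close paralogs, and only reads that align to 1 place were counted, so the division of reads among them is uncertain. The same holds for the Schlafen, guanylate-binding protein, p200, Ly6 and Klra families below.

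Promoters of 3 of these DEG, Trim30a, Slfn8 and Trim5, held the core of the interferon-stimulated response element in the RefSeq sequence of GRCm38.p6. They are shown because 2 of the genes were lower and 1 higher in KE with the same letters in a similar place, beside windows of 4 further genes from different ISG families that were lower in both KE libraries. The core searched was GAAANNGAAA on both strands, in the 250 bases before to 50 bases after each start, and capitals mark the match. Each window is written 5′ to 3′ on the strand of its gene, so that a match on the opposite strand appears as the reverse complement. The 4 further genes were chosen after their values were seen.
Trim30a (chr7:104465195-104465254, minus strand): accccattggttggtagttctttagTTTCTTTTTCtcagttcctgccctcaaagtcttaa
Slfn8 (chr11:83020824-83020883, minus strand): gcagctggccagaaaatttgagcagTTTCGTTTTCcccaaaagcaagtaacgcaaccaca
Trim5 (chr7:104288121-104288180, minus strand): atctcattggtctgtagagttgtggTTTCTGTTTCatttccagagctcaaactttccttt
Phf11b (chr14:59341346-59341405, minus strand): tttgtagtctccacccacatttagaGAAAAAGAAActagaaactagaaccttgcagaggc
Gbp2 (chr3:142620579-142620638, plus strand): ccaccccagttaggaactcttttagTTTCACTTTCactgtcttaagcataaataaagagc
Irgm1 (chr11:48871421-48871475, minus strand): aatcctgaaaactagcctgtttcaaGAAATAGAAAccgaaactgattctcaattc
Ifi214 (chr1:173536002-173536061, minus strand): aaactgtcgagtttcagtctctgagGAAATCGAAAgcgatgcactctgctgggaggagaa
The match ended 26 bases before the start in Trim30a, 38 in Slfn8 and 39 in Trim5. Of all 32851 promoters, 3.44% held the core. No match was found in the windows of Oasl2, Plac8, Klrb1f, Xcl1, Gm20743 and Arrdc4, which says only that these letters are not in those windows, and Trdc and Car2 were not matched in the promoter table.

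**Figure D1:**
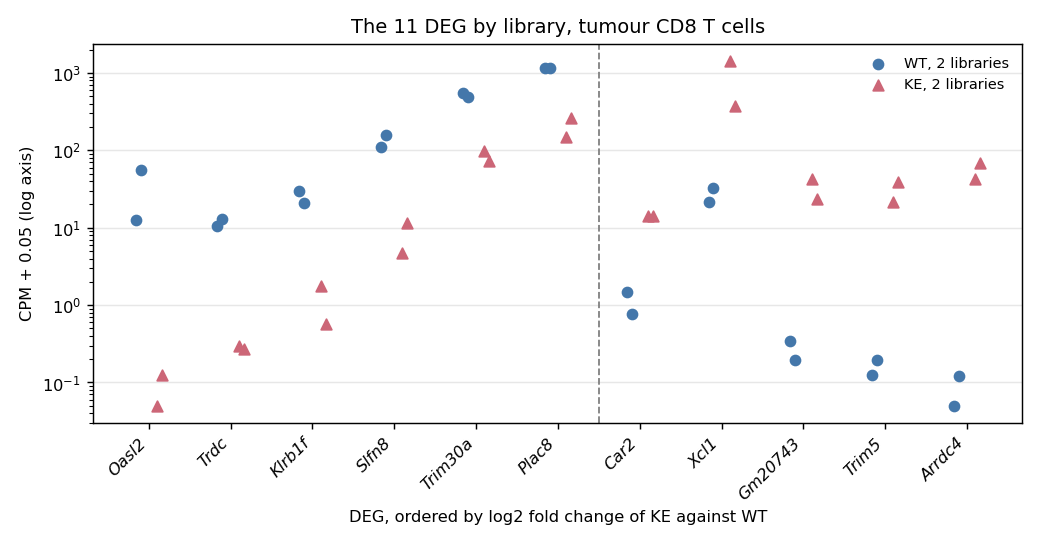
CPM of the 11 DEG in the WT and KE CD8 libraries (log axis, 0.05 CPM added), with 1 point per library and 2 libraries per genotype. KE points lie apart from WT points for every gene, on the lower side for 6 genes and on the upper side for 5.

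The lower lymphocyte receptor DEG had low levels in every CD8 library. Trdc (ENSMUSG00000104876, chromosome 14, 54142851 to 54148868, plus strand), which encodes the constant part of the TCR δ chain, was read at 10.6 and 12.8 CPM in WT and at 0.248 and 0.220 CPM in KE, at the floor (log2 fold change -5.59, SE 0.57, edgeR FDR 0.00938). Klrb1f (ENSMUSG00000030154, chromosome 6, 129045901 to 129057464, plus strand), a C-type lectin receptor of the NKR-P1 family, was read at 29.7 and 21.1 CPM in WT and at 1.74 and 0.513 CPM in KE (log2 fold change -4.50, SE 0.54, edgeR FDR 0.0289). Trac, the counterpart of Trdc for the α chain, had 1300 and 1920 CPM in WT and 1260 and 1860 CPM in KE. Trdc is the only tested one of 5 markers fixed for γδ T cells, and the CD3ε and CD8a gate admits CD8-positive γδ cells. In bulk samples fewer cells of a type and less RNA per cell cannot be told apart.

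Xcl1, Gm20743, Arrdc4 and Car2 were the other higher DEG. Xcl1 (ENSMUSG00000026573, chromosome 1, 164931644 to 164935527, minus strand) encodes a chemokine that attracts cross-presenting dendritic cells. It was read at 21.3 and 32.6 CPM in WT and at 1420 and 375 CPM in KE, so that the KE libraries differed between themselves but the lower one lay far above WT (log2 fold change 5.06, SE 0.66, edgeR FDR 0.0347). The non-coding Gm20743 transcript on the opposite strand (chromosome 1, 164863133 to 164936775, ENSMUSG00000104117) shares 98 exon bases with Xcl1. They are 18.7% of the exon bases of Xcl1 and 2.35% of those of Gm20743. Gm20743 was read at 0.297 and 0.145 CPM in WT and at 42.0 and 23.3 CPM in KE (log2 fold change 7.15, SE 0.69, edgeR FDR 0.00938). The labels call the libraries stranded, but no source says that counting took strand into account. To which gene, if any, reads of the shared stretch were counted is therefore not known. Arrdc4 (ENSMUSG00000042659, chromosome 7, 68736995 to 68749241, minus strand), an alpha-arrestin related to the glucose-responsive gene Txnip, held 0 and 1 counts in WT and 43.0 and 68.5 CPM in KE. The ratio of its group counts was 1540-fold higher in KE (95% counting interval 276 to 60900, edgeR FDR 0.0347), whereas Txnip had 262 and 337 CPM in WT and 206 and 158 CPM in KE (edgeR FDR 0.792). Car2 (ENSMUSG00000027562, chromosome 3, 14886273 to 14900770, plus strand), a cytosolic carbonic anhydrase, was read at 1.41 and 0.726 CPM in WT and at 14.1 and 14.2 CPM in KE (log2 fold change 3.72, SE 0.53, edgeR FDR 0.0366).

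Markers of other cell types, most of which the gate on CD45, CD3ε and CD8a would remove, were compared for the same 4 libraries. The summed markers of myeloid cells were at 230 and 213 CPM in WT and 583 and 282 CPM in KE, with 6 of 10 tested markers higher in both KE libraries (16.2% of all genes tested were) and Itgam at 6.45 and 4.28 CPM in WT and 0 in KE. Stromal markers summed to 18.2 and 35.9 CPM in WT and 0 and 4.98 CPM in KE, dendritic markers to 66.1 and 37.2 CPM and 8.35 and 31.6 CPM, and B cell markers to 161 and 406 CPM and 436 and 394 CPM, almost all of it Ighm, with Cd79b at or near 0. Markers of NK cells summed to 15.2 and 50.6 CPM in WT and 9.26 and 40.1 CPM in KE, those of CD4 T cells to 15.3 and 45.9 CPM and 18.4 and 11.3 CPM, and those of CD8 T cells to 11510 and 12550 CPM and 10910 and 14250 CPM. The tested CD4 T cell markers went opposite ways: Foxp3, the regulatory T cell factor, had 15.3 and 45.9 CPM in WT and 0 in both KE libraries (edgeR FDR 0.786), and Cd40lg had 0 in WT and 18.4 and 11.3 CPM in KE (edgeR FDR 0.792). Sums of neutrophil, erythroid and tumour epithelial markers were at or under 2.00 CPM, except for 17.1 CPM of epithelial markers in KE 2. The part of these cells in the differences was not tested.

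Interferon-stimulated families were then described beyond the DEG. In the 11 families, 120 of 134 genes were tested, and 80 of them (66.7%) were lower in both KE libraries than in both WT libraries, against 16.2% of all genes tested. Only Trim5 was higher in both, or 0.833%, against 16.2% of all genes. At an unadjusted edgeR p under 0.05, 50 of the 120 were lower, against a background of 3.02%, and 1 was higher, against 2.54%. Their median log2 fold change was -1.78 (quartiles -3.21 and -0.57), beside 0 for all genes tested, and 102 fold changes were negative and 16 positive. These lists and counts are a description, and the FDR threshold was passed by 5 of their genes.

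The share was higher among well-read genes. Of their 46 genes with a mean of at least 100 CPM over the 4 libraries, 41 (89.1%) were lower in both KE libraries, where 22% of the 2030 genes at that level were lower and 21.2% were higher. None of the 46 was higher in both, and the median was -1.66. The remaining 5, Ddx58, Ifitm1, Nlrc5, Gbp8 and Tmem173, overlapped. Ifitm1, which encodes a membrane protein that blocks viral entry, was read at 120 and 53.4 CPM in WT and at 26.2 and 1590 CPM in KE, so that KE 2 alone was high. Under 100 CPM, 39 of 74 (52.7%) were lower in both KE libraries, beside 15.2% of all genes under that level. Ifitm1 and the list of 5 were singled out after their values were seen.

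**Figure D2:**
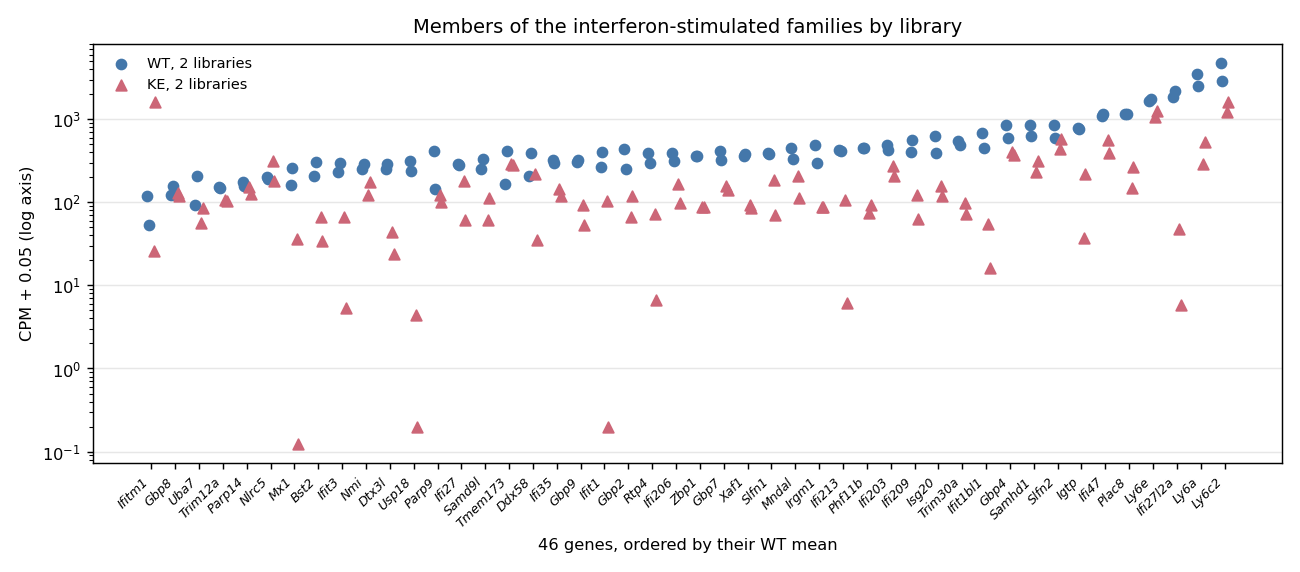
CPM in the 2 WT and 2 KE libraries (log axis, 0.05 CPM added) of the 46 genes of interferon-stimulated families with a mean of at least 100 CPM, ordered by their WT mean. KE points lie below WT points for 41 genes, and the point of Ifitm1 in KE 2 stands above its WT points.

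Antiviral effectors of the IFIT, MX and viperin list, which bind viral RNA or trap viral particles, had 22 of 27 genes lower in both KE libraries and 0 higher (median log2 fold change -2.35), where 16.2% of all genes tested were lower. Ifi27l2a was read at 1870 and 2210 CPM in WT and at 47.1 and 5.71 CPM in KE. Both KE libraries lay far under WT and differed widely from each other (edgeR FDR 0.130). Phf11b, with 456 and 452 CPM in WT and 73.7 and 93.9 CPM in KE, was the closest to the threshold (edgeR FDR 0.0618). Zbp1, a sensor of Z-form nucleic acids, was read at 362 and 358 CPM in WT and at 86.6 and 88.2 CPM in KE, a 4.12-fold lower mean (edgeR FDR 0.117). In the list of oligoadenylate synthetases, which sense double-stranded RNA, and related genes, 5 of 9 were lower, beside the same 16.2% (median -3.94). Oas3 had 54.0 and 33.3 CPM in WT and 0.0827 and 0.513 CPM in KE (edgeR FDR 0.730). The ISG15 conjugation system had 5 of 6 genes lower, beside 16.2% (median -3.15). Usp18, the protease that removes ISG15 and also restrains the type I IFN receptor, was read at 316 and 241 CPM in WT and at 4.38 and 0.146 CPM in KE, a 123-fold lower mean that did not pass the threshold (edgeR FDR 0.275).

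GTPases that act on vacuoles of intracellular pathogens held no DEG. Guanylate-binding proteins had 7 of 10 genes lower in both KE libraries, beside 16.2% of all genes here and for the next families (median log2 fold change -1.10), with Gbp7 at 410 and 321 CPM in WT and 155 and 141 CPM in KE (edgeR FDR 0.266). Immunity-related GTPases had 8 of 11 lower (median -1.85), with Ifi47 at 1080 and 1140 CPM against 558 and 394 CPM (edgeR FDR 0.0809) and Irgm1 at 491 and 297 CPM against 87.6 and 87.0 CPM (edgeR FDR 0.117). In the p200 family of DNA-binding proteins, 10 of 12 were lower and all 12 fold changes were negative (median -2.44). Ifi209 of this family was read at 404 and 565 CPM in WT and at 121 and 63.6 CPM in KE (edgeR FDR 0.0825), and Ifi214 at 133 and 141 CPM and 19.1 and 19.0 CPM (edgeR FDR 0.558). Replicates were thus close within genotypes for some of these genes, none of which passed the threshold.

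The remaining families differed among themselves in the share of lower genes. Beside 16.2% of all genes, the Ly6 and Plac8 list had 5 of 6 genes lower (median log2 fold change -1.60), including Ly6c2, a memory and activation marker of CD8 T cells, at 4740 and 2890 CPM in WT and 1210 and 1590 CPM in KE (edgeR FDR 0.181), and Ly6a at 3530 and 2520 CPM and 288 and 536 CPM (edgeR FDR 0.792). The PARP and DTX3L list, of ADP-ribosylation genes together with Samd9l, Helz2 and Nmi, had 6 of 9 lower (median -0.87), with Dtx3l at 254 and 285 CPM in WT and 44.0 and 23.6 CPM in KE (edgeR FDR 0.0848). Its partner gene Parp9 shares exon bases with it. Schlafen genes had 4 of 8 lower (median -1.12) and TRIM genes 6 of 14 lower and 1 higher (median -0.58). Nucleic acid sensors had 2 of 9 lower, the cytosolic RNA sensors Ifih1 and Dhx58, a share near the 16.2% of all genes. Tlr3 and Tlr7, the endosomal members of that list, had 0 CPM in the 4 libraries, so no median is given for it. Single libraries moved some of these medians by more than 1.5 times: without KE 1 that of the IFIT list was -3.75, of the OAS list -6.39, of the TRIM list -1.18, of the Schlafen list -2.32 and of the PARP list -1.37, while without WT 1 the Schlafen median was -0.55 and without WT 2 the TRIM median was 0.

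Genes of these families were set against the promoter core. In the families, 54 of 109 promoters held it (49.5%). Of 49 tested family genes with the core, 38 were lower and 1 was higher in both KE libraries (median log2 fold change -2.44), and of 40 without it in a listed promoter 23 were lower and 0 higher (median -1.59). Of 323 tested genes outside the families that held the core, 19.2% were lower and 16.7% higher, beside 16.6% and 16.5% of the 9372 tested genes with a promoter in the table. Being in a listed family and being lower thus went together both with and without these letters in the promoter, and the difference between the 2 sets of family genes was not tested.

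**Figure D3:**
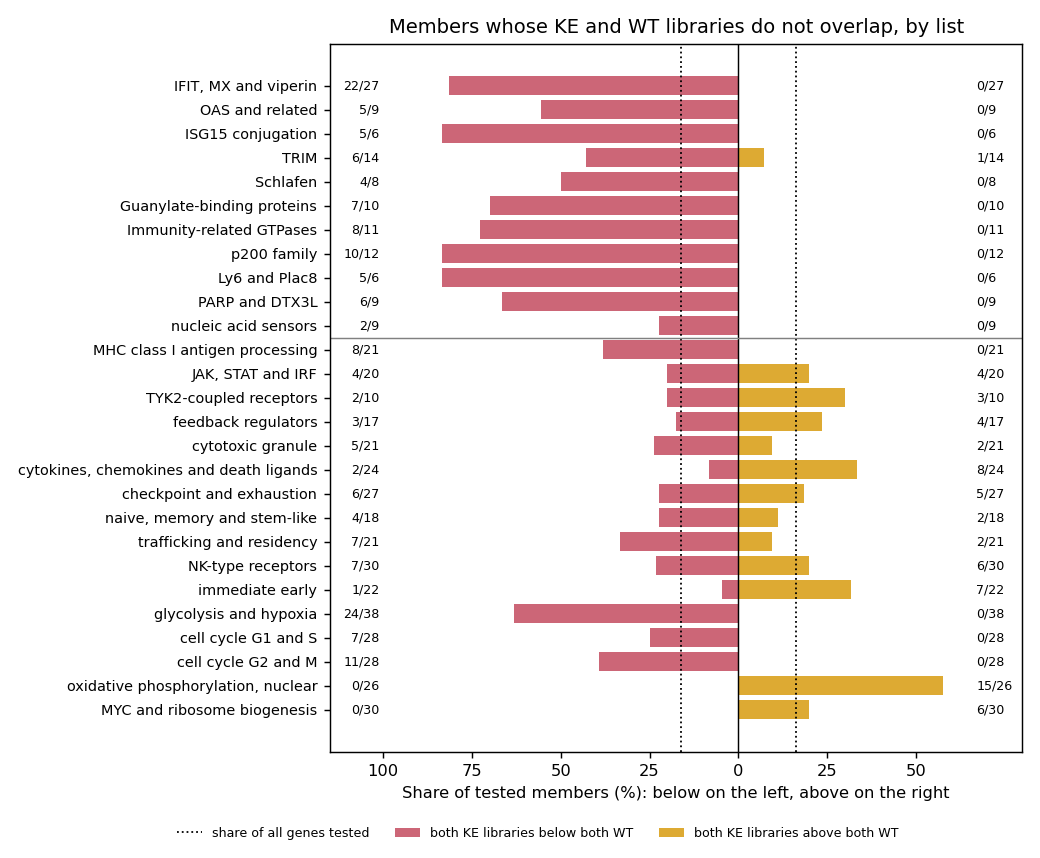
Share of the tested members of each list drawn here whose KE libraries both lay below (left) or above (right) both WT libraries, with the counts at the sides and dotted lines at 16.2%, the share of all genes tested in either direction. Some lists of the text, such as those of mitochondrial DNA, heat shock and cell type markers, are not drawn. Bars of the 11 interferon-stimulated families pass the left line, as do those of glycolysis, G2 and M phases, class I antigen processing and trafficking. Several further bars outside the families pass it by less than that of trafficking. Among bars drawn that pass the right line the longest is that of nuclear oxidative phosphorylation, followed by cytokines and immediate early genes.

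Antigen presentation genes, many of which respond to IFN, included no DEG. Of 21 genes of class I antigen processing, 13 overlapped between the genotypes, 8 were lower in both KE libraries, 0 were higher (beside 16.2% of all genes in either direction), and the median log2 fold change was -0.17 (-0.38 without KE 2 and -0.07 without WT 2). B2m, the light chain of class I molecules, was read at 11200 and 11500 CPM in WT and at 7950 and 9380 CPM in KE (log2 fold change -0.39, SE 0.13, edgeR FDR 0.775). The non-classical genes H2-T22 and H2-T23 had 437 and 408 CPM against 184 and 268 CPM and 1040 and 1160 CPM against 630 and 688 CPM (edgeR FDR 0.666 and 0.750).

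Signalling components upstream of ISG held no DEG. Of 20 JAK, STAT and IRF genes, 4 were lower and 4 higher in both KE libraries, shares near the 16.2% of all genes in either direction (median log2 fold change -0.11, from -0.35 without KE 1 to 0.21 without KE 2). Stat2, the STAT specific to IFN receptors, was read at 181 and 124 CPM in WT and at 7.19 and 39.3 CPM in KE (edgeR FDR 0.599), and Irf7, which amplifies IFN production, at 307 and 299 CPM and 99.3 and 18.4 CPM (edgeR FDR 0.558). Irf9 had 88.2 and 286 CPM in WT and 104 and 98.0 CPM in KE, which overlap. Irf5 was at 1 count in each WT library and at 5.29 and 53.5 CPM in KE (edgeR FDR 0.589). Among 10 receptor genes coupled to TYK2, 2 were lower and 3 higher, beside the same 16.2%. Il10ra, the ligand-binding chain of the IL-10 receptor, was read at 543 and 433 CPM in WT and at 26.0 and 111 CPM in KE (log2 fold change -2.83, SE 0.54, edgeR FDR 0.132), while Il10rb, the chain that binds TYK2, was at 119 and 91.7 CPM and 165 and 157 CPM (edgeR FDR 0.792). Of 17 feedback regulators, 3 were lower and 4 higher, again near 16.2% (median 0.42, or 0.10 without KE 2), with Socs1 at 31.7 and 27.4 CPM in WT and 57.6 and 78.6 CPM in KE (edgeR FDR 0.792).

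Effector genes of CD8 T cells did not pass the threshold in either direction except Xcl1. Gzmb, the main granzyme of cytotoxic lymphocytes, was read at 12700 and 9100 CPM in WT and at 1050 and 4950 CPM in KE (log2 fold change -1.87, SE 0.59, edgeR FDR 0.666), and Gzmk at 1060 and 801 CPM and 212 and 282 CPM (edgeR FDR 0.468). Prf1, which encodes perforin, overlapped, with 655 and 791 CPM in WT and 294 and 670 CPM in KE. Gzmc, Gzme and Gzmf, named after their values were seen, were high in KE 2 alone, at 3280, 234 and 1750 CPM, while the other KE library had 14.0, 0.0827 and 0.331 CPM and WT libraries had at most 44.3, 0.218 and 0.726 CPM. The granule list of 21 genes had 5 lower and 2 higher, not far from the 16.2% of all genes in either direction. Ifng was higher in both KE libraries, at 604 and 385 CPM against 205 and 158 CPM (log2 fold change 1.45, SE 0.70, edgeR FDR 0.792), and of 24 cytokine, chemokine and death ligand genes 8 were higher and 2 lower, beside 16.2% of all genes in either direction (median 0.27, or 0.50 without WT 1). Outside this list, Cd40lg, the CD4 T cell marker given above, was at least 67.5-fold higher in KE against a floor of 3 counts in each WT library (edgeR FDR 0.792).

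Inhibitory and memory genes varied around equality. Pdcd1, which encodes PD-1, was read at 1440 and 1470 CPM in WT and at 1390 and 1290 CPM in KE (log2 fold change -0.12, SE 0.88, edgeR FDR 1). Ctla4, named after its values were seen, had 1160 and 1180 CPM in WT and 400.0 and 451 CPM in KE, Icos 1250 and 1260 CPM and 620.0 and 768 CPM (edgeR FDR 0.792), and Cd244a 52.7 and 39.3 CPM and 124 and 252 CPM (edgeR FDR 0.786). Of the 27 checkpoint genes, 6 were lower and 5 higher, shares near the 16.2% of all genes in either direction. Tox, Tcf7 and Mki67 overlapped between genotypes. Of 21 trafficking genes 7 were lower and 2 higher, beside 16.2% of all genes in either direction. Among the lower ones were Cxcr3, the receptor for IFN-induced chemokines, at 590.0 and 594 CPM in WT and 395 and 300.0 CPM in KE (edgeR FDR 0.506), and Itgb7 at 346 and 243 CPM and 49.8 and 138 CPM (edgeR FDR 0.389).

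NK-type receptor genes included members on both sides. Of 30 genes, 7 were lower and 6 higher in both KE libraries, shares near the 16.2% of all genes in either direction, with 3 lower and 6 higher at an unadjusted edgeR p under 0.05, beside 3.02% and 2.54% of all genes. Klra7, an inhibitory Ly49 receptor, was read at 0.890 and 5.80 CPM in WT and at 86.6 and 167 CPM in KE (log2 fold change 5.24, SE 0.88, edgeR FDR 0.0847), and Klra3 at 0.222 and 0.218 CPM and 15.5 and 5.93 CPM (edgeR FDR 0.139). In KO libraries Klra7 was at 5.13 and 1.16 CPM, overlapping WT (edgeR FDR of KOvsKE 0.569). Both genes were read in NK libraries, where Klra7 had 589 and 603 CPM in WT and 746 and 427 CPM in KE and Klra3 had 153 and 135 CPM and 31.8 and 138 CPM. Of the 5 NK markers in the 4 CD8 libraries, Ncr1, Klrb1c and Klra8 were at or under 5.05 CPM, Klra4 had 10.1 and 5.73 CPM in WT and 0.992 and 4.83 CPM in KE, and Eomes, which CD8 T cells also express, had 0.593 and 40.2 CPM and 4.63 and 28.9 CPM. The part of NK cells in these reads was not tested.

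Glycolysis and hypoxia genes held no DEG. Of 38 genes, 24 were lower in both KE libraries, beside 16.2% of all genes, 0 were higher, and the median log2 fold change was -1.03. Of the 16 with a mean of at least 100 CPM, 16 were lower, beside 22% of all genes at that level, and 12 of them had an unadjusted edgeR p under 0.05, beside 6.31%, while no gene passed the FDR threshold (lowest edgeR FDR 0.236). Slc2a1, the glucose transporter GLUT1, was read at 555 and 317 CPM in WT and at 125 and 138 CPM in KE, a 3.32-fold lower mean (log2 fold change -1.73, SE 0.38, edgeR FDR 0.236). Hif1a, the oxygen-regulated subunit of the hypoxia-inducible factor, was at 936 and 657 CPM in WT and 281 and 402 CPM in KE (edgeR FDR 0.515).

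Several enzymes of the steps from glucose to lactate had both KE libraries below both WT libraries. Aldoa, Gapdh, Pkm, Ldha, Hk1, Hk2 and Pfkm are named beyond the rule, after their values were seen. Phosphofructokinase Pfkp was read at 783 and 711 CPM in WT and at 348 and 387 CPM in KE, and triosephosphate isomerase Tpi1 at 1590 and 1320 CPM and 646 and 777 CPM (edgeR FDR 0.545 and 0.549). Aldolase Aldoa had 3160 and 2700 CPM against 1190 and 2010 CPM, Gapdh 1790 and 1760 CPM against 957 and 1220 CPM, pyruvate kinase Pkm 633 and 657 CPM against 254 and 319 CPM, and lactate dehydrogenase Ldha 3110 and 3040 CPM against 1840 and 2330 CPM. The hexokinase genes Hk1 and Hk2, at the first step, and the phosphofructokinase gene Pfkm overlapped between genotypes. KO libraries lay between or near both genotypes for several of these genes, at 246 and 187 CPM for Slc2a1 and 538 and 524 CPM for Hif1a, and the median log2 fold change of KOvsKE over the 16 genes was 0.33, beside -0.04 over all genes at that level.

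**Figure D4:**
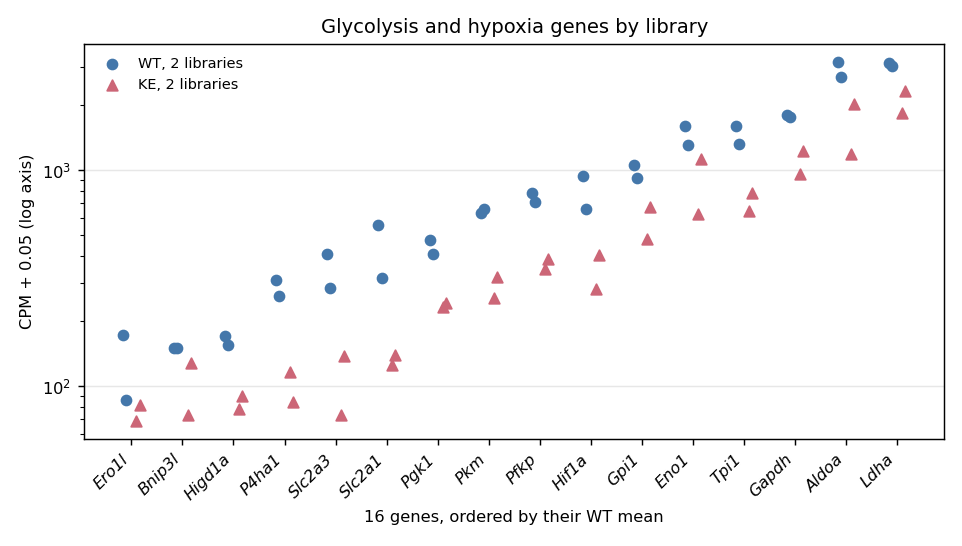
CPM in the 2 WT and 2 KE libraries (log axis, 0.05 CPM added) of the 16 glycolysis and hypoxia genes with a mean of at least 100 CPM, ordered by their WT mean. Both KE points lie below both WT points for each of the 16 genes, although for some, Ero1l and Bnip3l among them, the higher KE point comes close to the lower WT point.

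Respiratory chain genes held no DEG. Of 26 nuclear genes of oxidative phosphorylation, 15 were higher and 0 lower in both KE libraries, beside 16.2% of all genes in either direction, and 11 overlapped (median log2 fold change 0.29). Only 1 was higher at an unadjusted edgeR p under 0.05, a share near the 2.54% of all genes. That gene, Sdhc of complex II, was read at 86.8 and 89.5 CPM in WT and at 150.0 and 151 CPM in KE (edgeR FDR 0.792). Of 9 tested genes of mitochondrial DNA, 4 were higher, 0 lower and 5 overlapped (median 0.41, from 0.12 without WT 2 to 0.67 without WT 1), with mt-Nd5 at 2840 and 2570 CPM in WT and 4490 and 4020 CPM in KE (edgeR FDR 0.786). Of 30 MYC and ribosome biogenesis genes 6 were higher, a share near the 16.2% of all genes, and 0 lower (median 0.26, from -0.05 without KE 1 to 0.53 without KE 2), led by Nop16 at 2.37 and 6.38 CPM in WT and 71.3 and 95.4 CPM in KE (edgeR FDR 0.117). The share of counts from mitochondrial genes, a measure that also varies with RNA quality, overlapped between the genotypes, at 6.62% and 4.50% in WT and 7.68% and 6.17% in KE, and its part in these differences was not tested. Of 15 heat shock and stress genes, a list that also varies with the handling of cells, 8 were lower and 2 higher in both KE libraries, beside 16.2% of all genes in either direction (median log2 fold change -0.31, or -0.73 without KE 1). Hspa8, a constitutive chaperone, was read at 1530 and 1240 CPM in WT and 995 and 788 CPM in KE, and the inducible chaperone Hspa1a at 8.90 and 1.02 CPM in WT and 0 in KE (edgeR FDR 0.792 and 0.776). The part of handling in the other differences was not tested.

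Cell cycle genes varied with the library. Of 28 genes of G2 and M phases 11 were lower and 0 higher in both KE libraries, beside 16.2% of all genes in either direction (median log2 fold change -0.57), but the median went to -1.57 without KE 1 and to -0.18 without WT 2. Hmmr, a spindle gene, was read at 61.1 and 56.3 CPM in WT and at 0 and 7.25 CPM in KE (edgeR FDR 0.792). Of 28 genes of G1 and S phases 7 were lower and 0 higher, beside the same 16.2%, with a median of -0.04 that ran from -0.79 without KE 1 to 0.59 without WT 1. In the immediate early list 7 of 22 were higher and 1 lower, beside 16.2% of all genes (median 0.31, or 0.11 without KE 1), including Nfkbia at 277 and 316 CPM in WT and 702 and 597 CPM in KE (edgeR FDR 0.570).

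Genes read in one genotype and nearly absent in the other were counted across the table. In KE, 37 genes had at most 3 counts in both libraries while both WT libraries had at least 10 CPM, and 39 genes showed the reverse. Within a genotype, 438 and 353 genes were read at that level in 1 KE library with at most 3 counts in the other, and 471 and 342 in 1 WT library. These counts rest on 1 library against 1 and those between genotypes on 2 against 2, so they cannot be set against each other. Examples outside the lists were Kcnj8, a potassium channel gene, with 14.9 and 19.2 CPM in WT and 0 counts in KE (at least 73.0-fold lower against a floor of 3 counts in each KE library, edgeR FDR 0.0517), and Spidr, a DNA repair scaffold, with 84.4 and 15.5 CPM in WT and 0 in KE (at least 213-fold lower against the same floor, edgeR FDR 0.0517). In KO libraries Spidr was at 72.4 and 65.8 CPM. Keap1, the sensor of oxidative stress, had 32.4 and 23.1 CPM in WT, 0.0827 and 0 CPM in KE and 25.6 and 19.8 CPM in KO. A gene with high counts outside the lists was Ms4a4b, a membrane protein of T cells, at 5250 and 4900 CPM in WT and 2600 and 2670 CPM in KE (log2 fold change -0.95, SE 0.17, edgeR FDR 0.117).

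**Figure D5:**
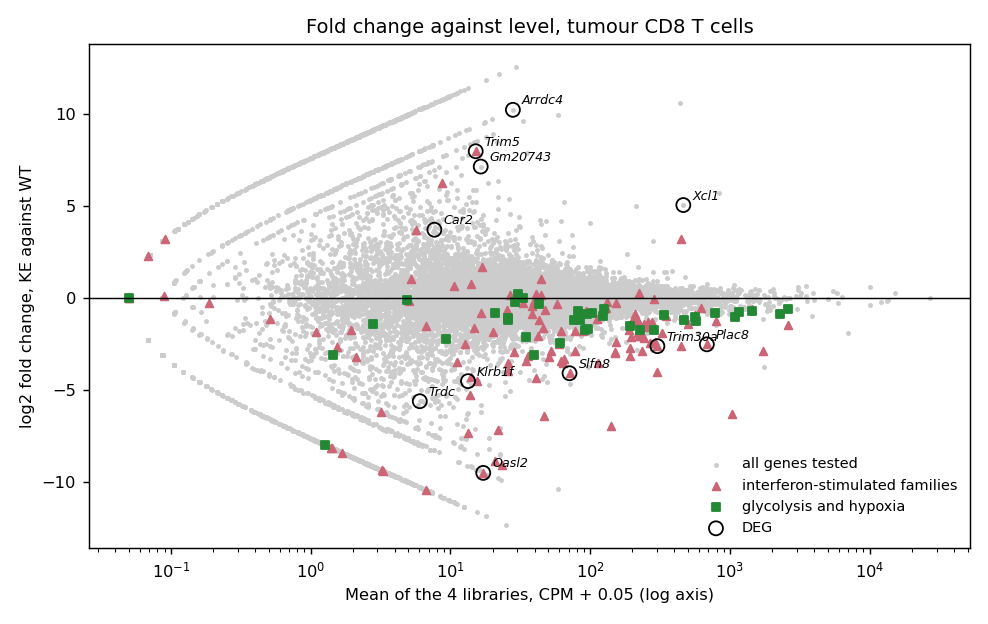
Log2 fold change of KEvsWT by edgeR against the mean CPM over the 4 libraries (log axis, 0.05 CPM added) for each gene tested, with interferon-stimulated families, glycolysis and hypoxia genes and DEG marked. Fold changes of genes with low counts spread widely on both sides of 0, and those of family genes with high counts lie mostly under 0.

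Loss of the protein and loss of kinase activity were set side by side in KO and KE, which share the WT libraries as controls. In KOvsKE, which uses the KE libraries again, 0 genes were DEG by edgeR, with 481 at an unadjusted p under 0.05 and a lowest FDR of 0.538, while DESeq2 called 157. Trim30a had 82.7 and 105 CPM in KO, overlapping KE, whereas Plac8 (534 and 387 CPM), Slfn8 (28.1 and 30.7 CPM) and Dtx3l (59.2 and 83.3 CPM) lay between KE and WT, without a difference from KE past the threshold (edgeR FDR 1 for Plac8 and Slfn8). Xcl1 was at 198 and 193 CPM in KO, below both KE libraries and above both WT libraries (edgeR FDR of KOvsKE 1). Gm20743 (10.3 and 9.96 CPM) and Arrdc4 (24.3 and 37.8 CPM) lay there as well. Trim5 (25.5 and 18.5 CPM), Trdc (0.23 and 0.083 CPM) and Klrb1f (0.536 and 0.664 CPM) overlapped KE. Oasl2 was near 0 in KO as in KE (0.0765 and 0.166 CPM), and Car2 was above both KE libraries (55.8 and 16.9 CPM). Among the 12 libraries, Trim5 and Arrdc4 were at or under 0.145 CPM only in the 2 WT CD8 libraries. The median KOvsKE log2 fold change over the 120 family genes was 0, as over all genes tested.

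NK cells of the same genotypes gave a second measure of the KE effect, and the difference of the effects between cell types was tested as an interaction. No gene passed (lowest edgeR FDR 0.061, 822 at an unadjusted p under 0.05), whereas DESeq2 called 278. Trim30a went from 548 and 404 CPM in WT NK cells to 246 and 139 CPM in KE NK cells, Plac8 from 389 and 433 CPM to 69.9 and 83.7 CPM, and Oasl2 from 171 and 129 CPM to 23.6 and 48.4 CPM. Slfn8 (238 and 169 CPM in WT, 109 and 68.9 CPM in KE) also had its KE libraries below WT in NK cells, and Car2 (695 and 514 CPM, 1030 and 1020 CPM) and Gm20743 (67.6 and 70.0 CPM, 152 and 99.8 CPM) had them above WT, the same sides as in CD8 T cells. Xcl1 (524 and 911 CPM, 702 and 1530 CPM) and Arrdc4 (44.6 and 25.8 CPM, 15.6 and 68.0 CPM) overlapped. Of the remaining DEG, Trdc and Trim5 overlapped between genotypes in NK cells and Klrb1f was higher in KE. Trdc had 113 and 215 CPM in WT and 176 and 134 CPM in KE NK cells, Klrb1f 325 and 456 CPM and 859 and 522 CPM, and Trim5 32.9 and 43.1 CPM and 32.0 and 33.9 CPM. The interaction of Trdc, Klrb1f and Gm20743 had an edgeR FDR of 0.061 each, and that of Trim5 0.189.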

How the data were processed

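RNA-seq was analysed in 12 libraries, 6 groups of 2, grouped by the genotype and cell type in the sample titles. The deposited values are raw counts per gene, which the authors made by trimming 50-base single-end reads with Trimmomatic, aligning them to mm10 with STAR and counting reads with a unique place in exons with summarizeOverlaps. All columns of the table belonged to a sample. Neither molecular identifiers nor strand-aware counting were stated, so PCR duplicates count as reads and reads of antisense overlaps may not be separated.

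The test was that of edgeR 4.0.16 (R 4.3.3) on genes whose normalized counts averaged 10 or more over the 12 libraries (TMM, robust quasi-likelihood F-test, two-sided, 1 mean per group, all libraries sharing the spread), with Benjamini-Hochberg adjustment over all genes. Standard errors were derived from the log2 fold change and its F statistic. CPM are given per library or as mean ± SD. Gene coordinates are those of GRCm38 (GENCODE). Scripts were tested on simulated counts. Alternatives were DESeq2 1.42.0, other size factors and filters, fits of CD8 libraries alone, a replicate block and leaving out each library.

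The comparison, its gene lists and tests were chosen with earlier results of these data known. Named genes were the sort markers, every DEG, up to 4 members per list with the smallest p among those whose libraries did not overlap, up to 8 further genes per direction, DEG neighbours within 200 kb and a few fixed genes. Genes named beyond the rule are marked as such. Some genes are not reported here.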

Additional observations from a re-analysis of the deposited data

How the results depend on the processing

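The number of DEG in KEvsWT depended on the fit. The 11 DEG (6 lower, 5 higher) became 185 (112 and 73) with no filter on low counts and 330 (196 and 134) with the DESeq2 Wald test on 12 libraries, and both sets held the same 11 genes. They became 0 (0 lower and 0 higher) when edgeR was fitted to only the 6 CD8 libraries or only the 4 libraries compared, where 624 and 553 genes had an unadjusted p under 0.05. With each of the 4 libraries left out in turn the count was 0 to 8, with 0 to 5 lower and 0 to 3 higher. KOvsKE gave 82 DEG with no filter, 157 with DESeq2 and 0 to 1 without single libraries, and the interaction between cell types gave 194, 278 and 0 to 2. The causes of these shifts were not tested.

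Each of the 11 DEG kept its sign in 12 alternatives but was called in only 4 to 8 of them, with a highest FDR of 0.473 to 0.865, and 6 of the 11 were called in no fit that left out a library. Counts of genes whose libraries did not overlap stayed within 1.5 times the main count. Deviations of same-numbered libraries correlated at 0.0378 or less in size, which cannot exclude a pairing weaker than the spread between replicates. A fit with the replicate block gave 4 DEG (3 lower, 1 higher). A change of sign was seen in 23 genes without a call when a single library was left out, and for Pfkm (0.72) and Eomes (0.19) also with the replicate block, with log2 fold changes of Xist (-2.23 to 9.65), Uty (-0.11 to 1.77), Pfkm (-2.41 to 7.24), Eomes (-2.14 to 4.8), Klra8 (-1.22 to 0.38), Cd3e (-0.76 to 0.36), Tcf7 (-0.48 to 0.63), Trac (-0.35 to 0.27), Nlrc5 (-0.13 to 0.64), Cd8a (-0.09 to 0.35), Klrb1c (-0.71 to 1.13), Itgae (-11.64 to 0.48), Mki67 (-1.62 to 0.13), Gzmc (-1.19 to 6.68), Gzme (-0.36 to 13.54), Gzmf (-0.71 to 11.61), Ifitm1 (-1.73 to 4.2), Trim34a (-1.22 to 0.10), Hk1 (-0.18 to 0.28), Tyk2 (-0.70 to 0.13), Irf9 (-1.50 to 0.20), Tox (-0.90 to 1.64) and Tmem173 (-0.55 to 0.78). With 2 libraries per group edgeR estimated a biological coefficient of variation of 109%, common to the genes, and levels under the floor of 3 counts (0.218 to 0.248 CPM) were not detectable at this depth.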
